A study of Mus musculus with 4 samples.

Results

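The S100 genes encode small calcium-binding proteins, and 10 of them (S100a1, S100a4, S100a6, S100a8, S100a9, S100a10, S100a11, S100a14, S100b and S100g) were followed by symbol through the 32285 features of the mouse thymic stromal matrices, where all 10 were listed in each of the 4 libraries. Another 7 S100 genes were in the matrices and are given as counts of calls, with values for those called. The members were chosen by their measured values in earlier results of these libraries, among them the genes that led an epithelial cluster and the contrast of mutant against control epithelial cells. Levels by cell class and the epithelial contrast are therefore given as description, without a test, and the tests below concern fibroblasts, endothelial cells and mural cells.

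The libraries came from CD45- thymic stroma cells of untreated 6-month-old C57BL/6 mice, profiled by droplet 3′ single-cell RNA-seq. The control group, WT, held 2 libraries of wild type mice (called mock in the titles), and the mutant group, Z/Z, held 2 libraries of mice that were homozygous LacZ at Foxn1, the transcription factor that drives thymic epithelial differentiation. The study's text describes this allele as hypomorphic. Thymi of several mice were pooled in each digestion, CD45+ cells were depleted and the rest were sorted, so a library is a pool, and p-values measure the spread between such pools. Sex is given as male in one label and female in another. Libraries are written WT 1, WT 2, Z/Z 1 and Z/Z 2, and 4 values in a row stand in that order.

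S100 proteins have a pair of EF-hand loops that bind calcium, and most act as dimers that open a surface for partner proteins once calcium is bound. Inside the cell they bind targets such as annexins, myosin and p53, and several are also released and read by receptors such as RAGE (encoded by Ager) and Tlr4. S100A8 and S100A9 form calprotectin, a zinc- and manganese-chelating complex best known from neutrophils and inflamed epithelia, and S100G is calbindin-D9k, the intestinal calcium-transport protein whose gene answers to vitamin D. In the thymus, medullary epithelial cells (mTECs) that pass through the Aire stage transcribe many genes typical of other tissues, each in a small part of the cells.

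On GRCm38 (mm10, GENCODE vM21), 8 of the 10 genes lie on chromosome 3 between 90511034 and 93564643, a span of 3053.6 kb. S100a8 (ENSMUSG00000056054) is at chr3:90668978-90670035 on the plus strand and S100a9 (ENSMUSG00000056071) at chr3:90692632-90695721 on the minus strand, 22596 bases apart. S100b is at chr10:76253853-76261159 and S100g (ENSMUSG00000040808) at chrX:162961992-162964599, each overlapping a gene on the opposite strand, and the counting used strand. S100a1 (ENSMUSG00000044080) is at chr3:90511034-90514392 on the minus strand. S100a4 overlaps an annotated gene model on its own strand that was not among the features, and S100a11 has an annotated pseudogene, so the reads of these 2 genes may be split in ways the counts do not show.

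Promoter windows of RefSeq (GRCm38.p6) span 250 bases before and 30 after the annotated start. They are shown for the 3 genes with the sharpest restriction to Aire-stage cells and for S100a1. S100a1 was the only member called in fibroblasts and in endothelial cells, and it was not called in mural cells. Capitals mark the TATA motif TATAAA.
S100a8, chr3:90668821-90669100, plus strand: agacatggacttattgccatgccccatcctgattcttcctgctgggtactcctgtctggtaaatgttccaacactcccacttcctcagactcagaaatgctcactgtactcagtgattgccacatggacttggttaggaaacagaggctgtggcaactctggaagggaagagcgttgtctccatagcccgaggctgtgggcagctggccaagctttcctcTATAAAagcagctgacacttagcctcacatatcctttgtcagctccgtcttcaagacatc
S100a9, chr3:90695692-90695971, minus strand: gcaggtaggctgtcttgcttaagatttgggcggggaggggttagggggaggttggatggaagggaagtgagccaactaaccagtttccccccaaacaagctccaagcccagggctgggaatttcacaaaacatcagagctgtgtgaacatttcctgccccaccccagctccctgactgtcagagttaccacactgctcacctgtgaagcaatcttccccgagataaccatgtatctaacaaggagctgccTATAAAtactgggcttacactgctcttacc
S100g, chrX:162964570-162964849, minus strand: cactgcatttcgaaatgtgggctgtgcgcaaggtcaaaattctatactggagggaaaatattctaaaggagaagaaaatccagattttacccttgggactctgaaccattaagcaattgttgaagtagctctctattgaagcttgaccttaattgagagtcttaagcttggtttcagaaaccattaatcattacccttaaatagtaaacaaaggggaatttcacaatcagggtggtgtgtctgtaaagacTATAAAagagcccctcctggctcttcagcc
S100a1, chr3:90514301-90514580, minus strand: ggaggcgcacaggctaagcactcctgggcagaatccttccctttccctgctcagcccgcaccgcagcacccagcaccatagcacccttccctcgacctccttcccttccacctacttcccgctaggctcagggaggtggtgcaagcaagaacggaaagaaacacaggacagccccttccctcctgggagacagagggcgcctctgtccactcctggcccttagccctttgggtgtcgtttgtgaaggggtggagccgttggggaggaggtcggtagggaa

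RefSeq windows were matched for 8 of the 10 genes, and S100a10 and S100a14 had no entry. The letters searched on both strands were the TATA motif TATAAA, the CCAAT box, and the AP-1 motif TGANTCA, which reads the same on both strands. TATAAA stood 30 bases before the start in S100a8 and 31 bases before it in S100a4, and at position 1 from the annotated start in S100a9 and S100g. In all promoters of the same length, 13.1% (4304 of 32851) held TATAAA, 36.1% held CCAAT and 7.46% held TGANTCA. None of these motifs occurred in the S100a1 window, while the S100a11 window held TGANTCA at 38 and at 136 bases before the start. These matches describe letters in the windows and say nothing about which factors bind.

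The files held 13981 called barcodes, of which 10245 had more than 1000 genes and under 20% mitochondrial UMIs, and 9847 were kept after removal of likely doublets (1458, 456, 4456 and 3477 by library). Clustering was done without any S100 gene or marker gene and gave 4168 thymic epithelial cells (TECs), 2736 fibroblasts, 1501 endothelial cells and 805 mural cells among 33 classes, 14 of them epithelial. Epcam in TECs (873 to 1160 CPM), Pdgfra in fibroblasts (439 to 582 CPM) and Pecam1 in endothelial cells (1640 to 1907 CPM) matched the lineage names, and Ptprc, which encodes CD45, stayed at or below 52.1 CPM in the 4 lineages. Foxn1 stood at 89.3 and 116 CPM in the TECs of WT and at 50.7 and 68.3 CPM in those of Z/Z, lower in both mutant libraries. The median UMIs per TEC were 16692 and 17716.5 in WT against 6747.5 and 7051 in Z/Z, so Z/Z cells were shallower. WT 1 and WT 2 shared 202 called barcodes (16.95% of the smaller library) and Z/Z 1 and Z/Z 2 shared 249 (5.533%), against 0 to 6 across genotypes, and nearly every shared pair was at least 10-fold deeper in 1 library. Some results that rest on these cells are given with and without them, and others, among them the shares of thinned cells, with them only.

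S100a8, S100a9 and S100g were the most restricted genes of the family. They lay largely in 1 class, the Aire-stage mTEC2-like cells, named for Aire (369 to 667 CPM) with the other markers of that stage. This class held 458 cells (273, 47, 58 and 80), which were 49.4%, 45.2%, 2.96% and 5.17% of the TECs of each library.

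S100a8, the calcium- and zinc-binding subunit of calprotectin, measured 725, 955, 656 and 353 CPM in the Aire-stage cells. All 4 libraries were high, and the WT values lay above those of Z/Z. In all other TECs it measured 1.98, 1.09, 0.312 and 0.125 CPM in the same order, from 10, 1, 6 and 2 UMIs. Of all S100a8 UMIs of a library, 97.4% to 99.2% were in this class. Without the cells on shared barcodes the Aire-stage levels were 793, 1802 (15 cells), 142 and 405 CPM, with WT again above Z/Z and the order of the Z/Z libraries turned.

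S100a9, the partner subunit, measured 323, 44.4, 230 and 80.5 CPM in the Aire-stage cells. The groups overlapped, and the WT libraries differed from each other more than the groups did. The other TECs held 4, 2, 3 and 2 UMIs of S100a9 in all. Of the S100a9 UMIs of a library, the class held 97.99% to 99.15% in WT 1, Z/Z 1 and Z/Z 2. In WT 2 it held 86.1% (62 of 72), with 7 UMIs in 9 B-lineage cells. WT 1 and Z/Z 1 were the high libraries of their groups. Without the cells on shared barcodes the levels were 385, 89.5, 96.0 and 92.6 CPM, WT 1 alone being high.

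S100g, calbindin-D9k, measured 450, 735, 268 and 386 CPM in the Aire-stage cells, with both WT values above both Z/Z values. In the other TECs it ranged from 0.625 to 4.55 CPM and the groups overlapped. The class held 92.1% to 98.7% of the S100g UMIs of a library. Vdr, the vitamin D receptor gene, was measured over all TECs, not the Aire-stage cells alone. It stood at 81.6 and 60.7 CPM (scaled by TMM) in WT against 12.6 and 21.4 in Z/Z, and Z/Z was lower in both libraries. No Vdr level within Aire-stage cells is given, and a link to S100g was not tested.

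**Figure D1:**
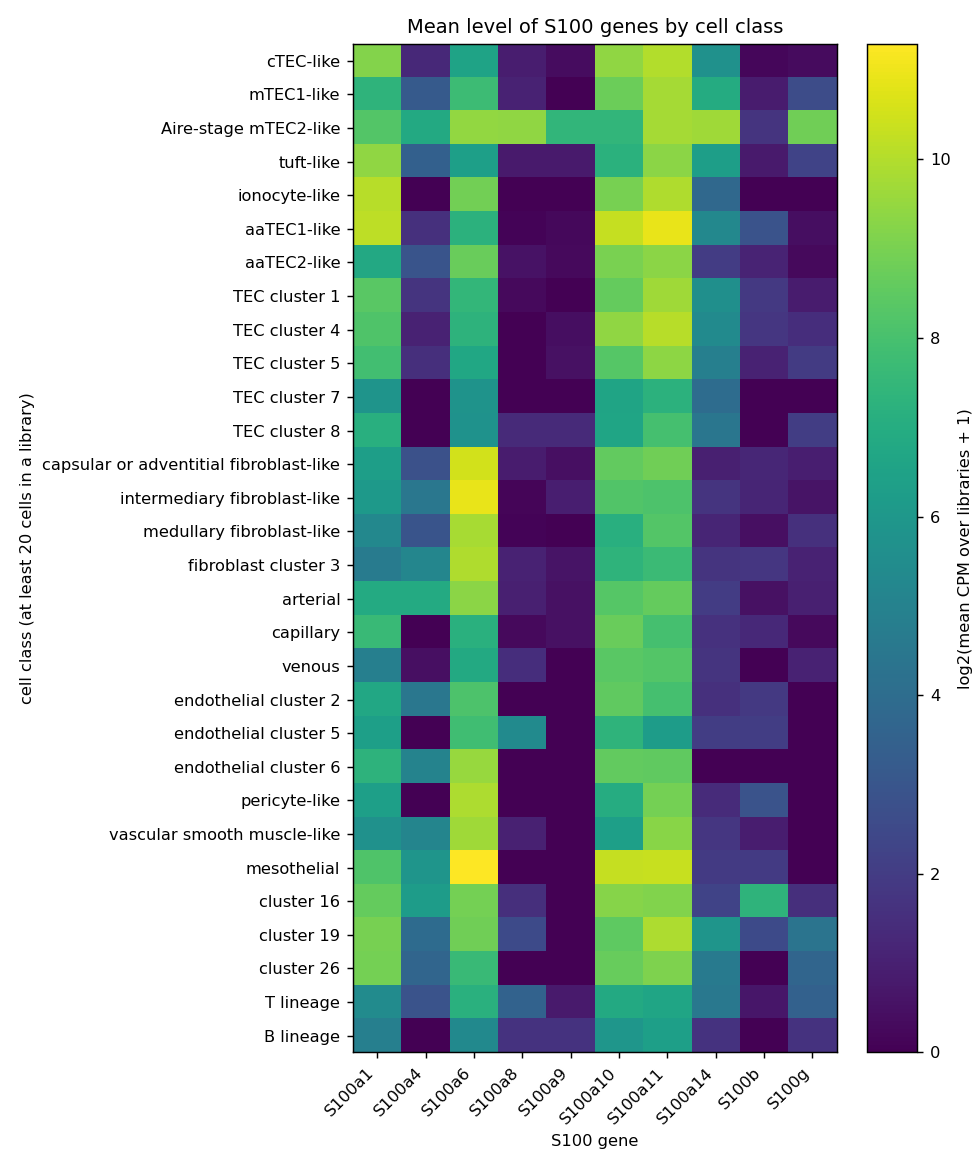
Levels of the 10 S100 genes by cell class, as CPM of UMI sums on a log colour scale, averaged over the libraries with at least 20 cells of a class. S100a8, S100a9 and S100g have their highest level in the Aire-stage mTEC2-like class, while S100a6, S100a10 and S100a11 are seen in most classes.

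Within the Aire-stage class the UMIs of the restricted genes were concentrated in few cells. S100a8 had no UMI in 72.9%, 72.3%, 86.2% and 73.8% of these cells, and the 10% of cells with most UMIs held 94.7%, 86.2%, 99.6% and 96.2% of its UMIs. The cell with most S100a8 UMIs held 630, 438, 473 and 176 of them. S100a9 was as concentrated, with 96.8% to 100% of its UMIs in the top 10% of cells, and S100g less so, with 69.4% to 84.5%. S100g had no UMI in 36.17% to 46.55% of the cells, so most cells of the class held at least 1. S100a14 (32.2% to 44.8%) and S100a11 (30.2% to 46.0%) were spread over the class. The level of S100a8 in a library thus rested on few cells, with 10 or more UMIs in 37, 8, 4 and 8 of them.

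For shares at matched depth, cells were reduced to 2000 UMIs apiece. S100a8 was then seen in 17.9% (exact 95% interval 13.5% to 23.1%), 19.6% (9.36% to 33.9%), 10.5% (3.96% to 21.5%) and 11.4% (5.34% to 20.5%) of Aire-stage cells. The intervals overlap, they cover counting error only, and 2 libraries against 2 cannot give an exact two-sided permutation p below 0.33. Before thinning the shares were 27.1%, 27.7%, 13.8% and 26.3%. In capsular or adventitial fibroblast-like cells, which served as background, no thinned cell of 152, 29, 238 and 229 held an S100a8 UMI. The exact 95% upper bounds were 2.40%, 11.9%, 1.54% and 1.60%. The Aire-stage shares were above these bounds, but the interval of WT 2 reached below its own.

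Epithelial and neutrophil genes were counted in the 57 Aire-stage cells with 10 or more S100a8 UMIs. An Aire UMI, which the class was named for, was found in 51 of them, Epcam in 54 and the class II gene H2-Aa in 56. Of the neutrophil genes, Csf3r and Mmp8 were at 0 in all 57, while Retnlg was seen in 2 and Ly6g in 5. Ly6g reached 282 UMIs in a cell of WT 1. The other neutrophil genes listed (Mmp9, Cxcr2, Camp, Ngp and Ltf) were not counted in these cells. Ptprc was seen in 11. Shared barcodes made up 16 of the 57. Ly6g itself was concentrated in the same way, with 52.9 and 66.5 CPM in the Aire-stage cells of WT 1 and WT 2 and 0 and 47.9 CPM in those of Z/Z. Over the 9 neutrophil genes listed, the summed level in Aire-stage cells was 152, 97.3, 21.2 and 104 CPM, with Camp highest in WT 1 at 62.2 CPM, and Csf3r at or below 0.715 CPM in every library.

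Calprotectin subunits were not always found together. Of the 57 cells with 10 or more S100a8 UMIs, 24 also held 10 or more of S100a9, and 24 held 10 or more of S100g. S100a9 passed 10 UMIs in 33 cells, of which 24 were the cells shared with S100a8, and S100g passed it in 89, of which 24 were shared with S100a8 and 11 with S100a9. After thinning, 47, 9, 6 and 9 cells held S100a8, and 38.3%, 11.1%, 66.7% and 11.1% of them also had S100a9, while 36.2%, 55.6%, 33.3% and 33.3% had S100g. In WT 1, 18 of the 24 cells with S100a9 (75%) also had S100a8. The threshold of 10 UMIs was chosen after the values were seen.

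**Figure D2:**
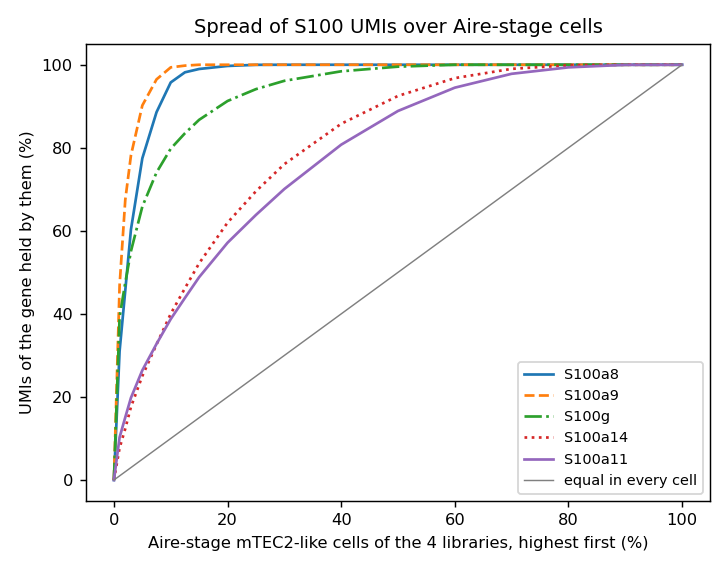
Cumulative share of the UMIs of 5 S100 genes (vertical axis, percent) against the share of Aire-stage mTEC2-like cells, ranked from most to fewest UMIs of the gene and pooled over the 4 libraries (horizontal axis, percent). The curves of S100a8 and S100a9 lie furthest from the grey line of equal counts, that of S100g comes next, and those of S100a14 and S100a11 lie closest.

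S100a14 was highest in Aire-stage cells too, but was also measured in other epithelium. It stood at 683, 726, 1047 and 825 CPM in Aire-stage cells, with both Z/Z values above WT, and at 84.7, 34.7, 37.3 and 39.8 CPM in the other TECs. Keratin-rich mTEC1-like cells held 133, 119 and 120 CPM in WT 1, Z/Z 1 and Z/Z 2. An S100a14 UMI was found in 50.4%, 47.8%, 68.4% and 57.0% of thinned Aire-stage cells. In cTEC-like cells the share was 6.15% to 7% in the 3 libraries with at least 20 of them. No thinned capsular fibroblast of 152 in WT 1 held one. The exact upper bound for that share is the one given above for S100a8, which was also absent from these cells.

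S100a4, known as a fibroblast and motility protein that binds non-muscle myosin, was highest outside the fibroblasts. Its leading class levels were in arterial endothelial cells (66.9, 97.2 and 187 CPM in WT 1, Z/Z 1 and Z/Z 2) and in Aire-stage cells (86.9, 95.2, 119 and 160 CPM). These classes did not differ beyond their spread. In the other TECs it was 4.16, 5.43, 2.97 and 3.12 CPM, from 21, 5, 57 and 50 UMIs. Within Aire-stage cells both Z/Z values exceeded WT (139 ± 29.2 against 91.0 ± 5.83 CPM, mean ± SD, n = 2 libraries each), and in the other TECs both were lower. Without the cells on shared barcodes the Aire-stage means were 190.2 CPM in Z/Z and 82.17 CPM in WT, with 15 cells in WT 2.

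S100a6, calcyclin, was led by stroma. Mesothelial cells of Z/Z 2, the only library with at least 20 of them, stood at 2505 CPM, intermediary fibroblast-like cells at 2146, 1945, 1908 and 1730 CPM, and capsular or adventitial fibroblast-like cells at 1814, 1349, 1387 and 1327 CPM. Aire-stage cells stood lower, at 773, 831, 648 and 600 CPM, WT above Z/Z. Among the classes between were medullary fibroblast-like cells (means of 917 CPM in WT and 880 in Z/Z). Vascular smooth muscle-like cells (961 CPM in WT 1 and a mean of 738 in Z/Z) also lay there. Without the cells on shared barcodes the Aire-stage levels were 853, 1321, 1027 and 600.1 CPM, and the groups overlapped. T-lineage cells held 30.5, 120.9 and 281.2 CPM in WT 1, WT 2 and Z/Z 2, and B-lineage cells 72.88 and 6.66 CPM in WT 1 and Z/Z 1.

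S100a10, the annexin A2 partner p11, and S100a11, a binder of annexin A1, peaked together in aaTEC1-like cells, the Otog- and Cldn9-rich epithelial class, with 1236 and 1249 CPM of S100a10 and 1740 and 2160 CPM of S100a11 in Z/Z 1 and Z/Z 2. WT held 16 and 10 such cells, under the minimum of 20, so this class has no WT value here. Mesothelial cells (1269 CPM in Z/Z 2) matched the aaTEC1-like level of S100a10. cTEC-like cells had 828, 635 and 598 CPM of S100a10 and 1258, 788 and 1030 CPM of S100a11 in WT 1, Z/Z 1 and Z/Z 2. In Aire-stage cells S100a10 was lower, at 202, 68.7, 148 and 271 CPM, and the groups overlapped.

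S100a1, a regulator of calcium release and contraction in muscle, had its highest class levels in epithelium. aaTEC1-like cells were highest (983 and 1318 CPM in Z/Z 1 and Z/Z 2), next to ionocyte-like cells (1082 CPM in Z/Z 1), and above tuft-like cells (406 CPM in WT 1 and 967 in Z/Z 2) and cTEC-like cells (519, 509 and 702 CPM in WT 1, Z/Z 1 and Z/Z 2). An S100a1 UMI was found in 72.7% and 80% of thinned aaTEC1-like cells in Z/Z, against 26.3% to 43.0% of Aire-stage cells. The upper classes overlap within the spread of their libraries, and aaTEC2-like cells, at 109 and 115 CPM in Z/Z 1 and Z/Z 2, fell below the aaTEC1-like level. Classes outside the epithelium exceeded the aaTEC2-like level, among them cluster 16 (322 and 459 CPM) and capillary cells (188 and 214 CPM) in Z/Z 1 and Z/Z 2 and mesothelial cells (292 CPM) in Z/Z 2.

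S100b, the glial S100 protein, had its highest level in cluster 16, an unnamed class with Ncam1, Ncam2, Ctnna2 and S100b among its leading genes. It stood at 186 CPM in the 115 cells of Z/Z 1 and 134 CPM in the 38 cells of Z/Z 2, and at most 12.7 CPM in any other class with 20 cells. This cluster held 70.1% (192 of 274) and 34.3% (35 of 102) of the S100b UMIs of these libraries. The larger aaTEC1-like class, at a mean of 6.34 CPM in Z/Z, held 11.3% (31 of 274) and 31.4% (32 of 102), nearly as many as cluster 16 in Z/Z 2. Of the 1458 and 456 cells kept in WT, 0 were in cluster 16. Thinned to 2000 UMIs, 21.7% (exact 95% interval 14.6% to 30.4%) and 23.7% (11.4% to 40.2%) of its cells held an S100b UMI. In capsular or adventitial fibroblast-like cells of the same libraries, 0 of 238 (exact 95% upper bound 1.54%) and 2 of 229 (0.873%) held one. In TECs S100b was 2.60, 3.02, 2.78 and 2.53 CPM, and in droplets without cells it was 1.02, 0, 3.47 and 11.3 CPM.

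Across 49 sums of class and library with at least 50 cells (23 classes), the genes outside the family that followed each member most closely were named by Pearson's r of log2(CPM + 1) among 10051 genes with a mean of at least 10 CPM. These sums share libraries and depth, and the correlations are given as description. S100a8 was followed by Gm14275 (r = 0.929), Apoc2 (0.919) and Tnip3 (0.919), S100a9 by Apoc2 (0.943), Spock3 (0.887) and Gm14275 (0.885), and S100g by Gm29461 (0.942), Serpinb2 (0.933) and Gm47938 (0.932). For S100a14 they were Bspry (0.957), the keratin gene Krt17 (0.939) and the class II gene H2-Eb2 (0.933). S100a10 was followed by Anxa2 (0.770), the gene of its own binding partner, then by Ppa1 (0.742) and Tmbim6 (0.735). For S100a11 they were Rnh1 (0.894), Anapc13 (0.845) and Dynll2 (0.844), for S100a1 Gsta4 (0.864), Dynll2 (0.861) and Sfn (0.822), and for S100a6 Rarres2 (0.921), Scpep1 (0.896) and Clip3 (0.874). The closest genes to S100a4 (Syt11 0.664, Cyba 0.650 and Gdf15 0.626) and S100b (Sirt2 0.643, Cldn14 0.592 and Dbi 0.580) were less alike.

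Over all TECs, S100a8 stood at 428 and 576 CPM in WT and 41.0 and 41.8 CPM in Z/Z, a ratio of the means of 12.1. Within Aire-stage cells the WT mean was 840 ± 162 CPM and the Z/Z mean 504 ± 214 CPM (SD, n = 2 libraries each), a ratio of 1.67. That ratio depended on the cells on shared barcodes: without them the Aire-stage levels of S100a8 were 793, 1802, 142 and 405 CPM, a ratio of 4.75. S100g gave ratios of 10.7 over all TECs and 1.81 within Aire-stage cells, S100a9 gave 9.06 and 1.18, and S100a14 gave 3.82 and 0.753. Without shared barcodes the Aire-stage ratios were 1.28 for S100g, 2.52 for S100a9, with groups that overlapped, and 0.731 for S100a14. The share of TECs in the Aire-stage class moved in the same direction (49.4% and 45.2% against 2.96% and 5.17%). S100a6, at 541, 549, 234 and 228 CPM over all TECs, was higher in WT overall (2.36) and within Aire-stage cells (1.29), while the other TECs overlapped, as did the Aire-stage values without shared barcodes (853, 1321, 1027 and 600.1 CPM). Shares of a class and levels within it are both set by digestion and sorting as well as genotype, and these cannot be told apart here.

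**Figure D3:**
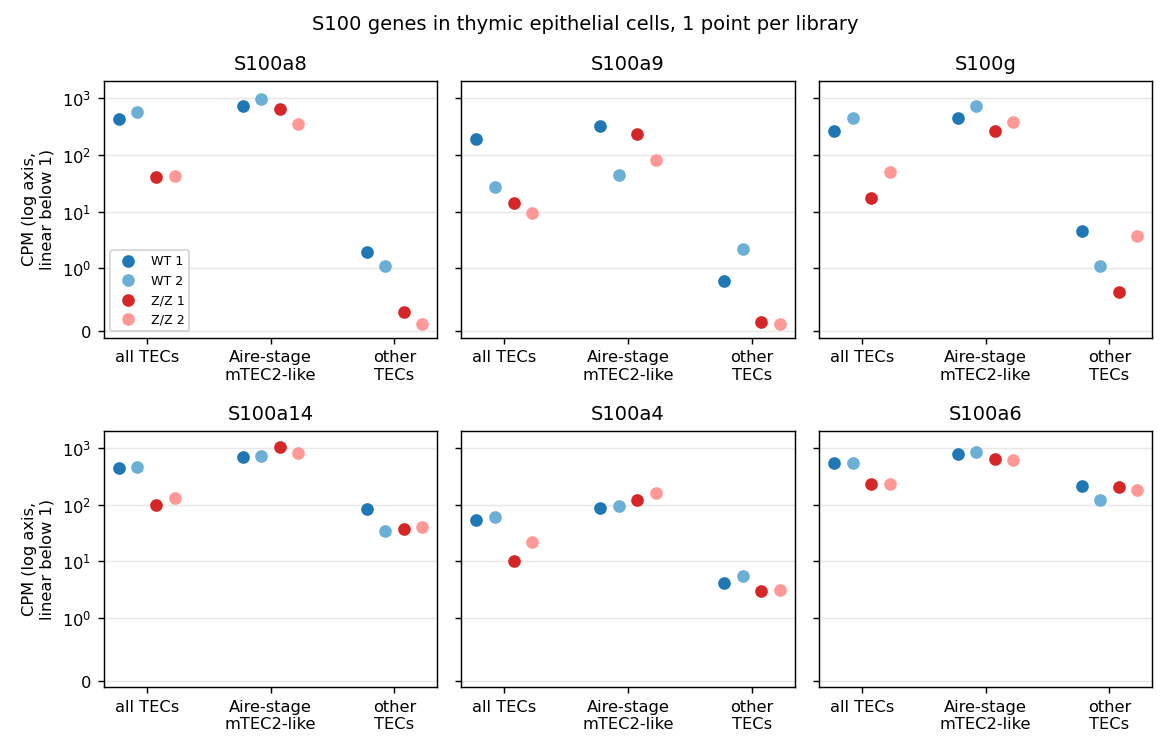
CPM of UMI sums of 6 S100 genes in all TECs, in Aire-stage mTEC2-like cells and in the other TECs, 1 point per library, on a log axis that is linear below 1. WT and Z/Z points lie about 10-fold apart for S100a8 and S100g in all TECs, and for S100a8 at 725 and 955 against 656 and 353 CPM in the Aire-stage class, or 793 and 1802 against 142 and 405 CPM without the cells on shared barcodes, which the plot does not show.

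The edgeR quasi-likelihood fit of TEC sums, given as description because the genes were put forward from this contrast, had log2 fold changes (Z/Z over WT, ± SE) of −3.46 ± 0.21 for S100a8, −3.29 ± 0.55 for S100g, −3.06 ± 0.84 for S100a9, −1.79 ± 0.18 for S100a14, −1.68 ± 0.37 for S100a4 and −1.10 ± 0.14 for S100a6. Higher in Z/Z were S100a10 (1.36 ± 0.21; 335, 235, 685 and 640 CPM), S100a1 (0.95 ± 0.19; 307, 322, 471 and 634 CPM) and S100a11 (0.57 ± 0.18; 840, 836, 1006 and 1259 CPM), with both Z/Z libraries above both WT libraries for each, and S100b was at 0.09 ± 0.44. The adjusted p was under 0.05 for 7 of the 10 members, beside 21.5% of all 18866 genes tested (9.75% higher and 11.8% lower), a count that the choice of members fixed in part and from which nothing is read. In the TECs other than Aire-stage cells, S100a10 stood at 527, 487, 720 and 690 CPM, S100a1 at 409, 356, 486 and 656 CPM and S100a11 at 996, 771, 1018 and 1283 CPM. With the cells on shared barcodes left out, no member and 1 gene in all passed, and the fold changes were −3.86 ± 0.95 for S100a8, −4.03 ± 1.04 for S100a9 and −2.52 ± 0.63 for S100g. Without Z/Z 1 no member and no gene passed. Droplets without cells held 146, 100.4, 387 and 404 CPM of S100a10 and 327, 181, 603 and 751 CPM of S100a11, and with their profile subtracted the TEC fold changes were 1.39 ± 0.24 for S100a10, 0.60 ± 0.19 for S100a11 and 0.94 ± 0.20 for S100a1. The 9 neutrophil genes summed to 103.5, 100.0, 12.0 and 73.8 CPM in TECs, lower in Z/Z as was S100a8, with Csf3r at 0.326 to 0.431 CPM, and their part in the S100a8 difference was not tested.

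Whether the family changed with Foxn1 outside the epithelium was tested in fibroblasts, where Foxn1 was at most 0.600 CPM. S100a1 was the only member called, of 7 that passed the filter on low counts and beside 2.88% of 13880 genes (1.69% higher and 1.19% lower). Its TMM-scaled level was 34.9 and 38.7 CPM in WT and 65.1 and 81.0 CPM in Z/Z. Both Z/Z libraries lay above both WT libraries, and the log2 fold change was 0.99 ± 0.18 (SE; adjusted p = 0.0219 by edgeR's quasi-likelihood test). No call remained when any of the libraries was dropped (adjusted p = 0.133, 0.0680, 0.245 and 0.398 in library order), and it was kept with the cells on shared barcodes left out (log2 fold change 1.10, adjusted p = 0.0402).

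Free S100a1 RNA moved the same way. Droplets without cells held 113 and 82.2 CPM of S100a1 in WT and 326 and 443 CPM in Z/Z. With the empty-droplet profile subtracted, the fibroblast log2 fold change was 0.48 ± 0.18 and the adjusted p 0.201. Its part in the result was measured only through this subtraction, which assumes the largest empty-droplet share the counts allow (2.04% to 7.64% of fibroblast UMIs).

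The make-up of the fibroblasts also differed. Fibroblast cluster 3, unnamed and led by Csf2rb and Cpne4, held 286 of 599 and 117 of 192 fibroblasts in WT against 20 of 1209 and 14 of 736 in Z/Z, and its S100a1 level was low in the libraries with at least 20 of its cells (28.7, 25.8 and 20.1 CPM in WT 1, WT 2 and Z/Z 1). Within capsular or adventitial fibroblast-like cells S100a1 stood at 46.2, 74.5, 97.3 and 98.2 CPM (log2 fold change 0.87, adjusted p = 0.0683), within intermediary cells at 52.4, 55.0, 85.5 and 74.3 CPM (0.68, adjusted p = 0.290), and within medullary cells at 25.6, 29.0, 37.4 and 59.4 CPM (0.83, adjusted p = 0.330). Z/Z lay above WT in each of these classes, but by edgeR none of the 3 passed.

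The other fibroblast members did not pass. S100a4 was nearest, at 31.7, 22.0, 6.85 and 13.8 CPM (TMM-scaled), both Z/Z values under both WT values (−1.44 ± 0.34, adjusted p = 0.0587 by edgeR). DESeq2 called it (adjusted p = 0.0113), and so did edgeR with the replicate number as a block (adjusted p = 0.0492). In fibroblast cluster 3 S100a4 stood at 49.0, 38.0 and 20.1 CPM in WT 1, WT 2 and Z/Z 1, above the fibroblast mean, and within medullary cells the fold change had the opposite sign (0.19). S100a6 was level at 1533, 1210, 1212 and 1393 CPM (−0.07 ± 0.18, adjusted p = 0.878), as were S100a10 (320, 229, 200 and 251 CPM; −0.29 ± 0.20, adjusted p = 0.504) and S100a11 (361, 280, 300 and 411 CPM; 0.14 ± 0.20, adjusted p = 0.770), the groups overlapping in each. S100a14 (2.78, 2.44, 0.59 and 1.11 CPM, adjusted p = 0.185) and S100g (1.62, 1.40, 0.51 and 0.56 CPM, adjusted p = 0.283) were near the floor, in the direction of their empty-droplet levels (140 and 87.5 against 40.5 and 57.9 CPM, and 64.6 and 35.2 against 10.4 and 21.2 CPM). S100a8 (14, 2, 2 and 1 UMIs), S100a9 (13, 0, 0 and 0) and S100b (7, 0, 14 and 11) were too low to enter the test.

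In endothelial cells S100a1 was again higher in Z/Z. It stood at 59.2 and 41.2 CPM (TMM-scaled) in WT against 147 and 142 CPM in Z/Z, both mutant libraries above both controls (log2 fold change 1.41 ± 0.25, adjusted p = 0.0215 by edgeR), and was the only call among 5 members tested, beside 1.77% of 11350 genes (0.916% higher and 0.855% lower). With the empty-droplet profile subtracted it was 1.13 ± 0.27 with an adjusted p of 0.0581. Dropping either mutant library ended the call (adjusted p = 0.0835 for Z/Z 1 and 0.0505 for Z/Z 2), and it was kept without the shared barcodes (1.42, adjusted p = 0.0443). Capillary cells, which numbered 12 and 1 in WT against 386 and 336 in Z/Z, had 188 and 214 CPM in Z/Z, above venous cells at 39.1 and 28.1 CPM, and with capillary cells left out the fold change was 1.06 (adjusted p = 0.124). The WT 2 value rests on 25 cells and 8 UMIs.

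The other endothelial members did not pass by edgeR's test. S100a4 ran at 32.9, 77.3, 18.8 and 30.6 CPM (TMM-scaled; −0.87 ± 0.42, adjusted p = 0.298), with both Z/Z values under WT. S100a6 was 364, 314, 293 and 233 CPM (−0.39 ± 0.21, adjusted p = 0.359), S100a10 308, 340, 410 and 365 CPM (0.27 ± 0.20, adjusted p = 0.509), and S100a11 246, 191, 274 and 346 CPM (0.46 ± 0.23, adjusted p = 0.299). For each of these 3 genes the groups did not overlap, yet none passed. S100a8 had 14, 0, 2 and 3 UMIs. In WT 1, 13 of them lay in endothelial cluster 5 (83.2 CPM), in 2 of its 26 cells.

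**Figure D4:**
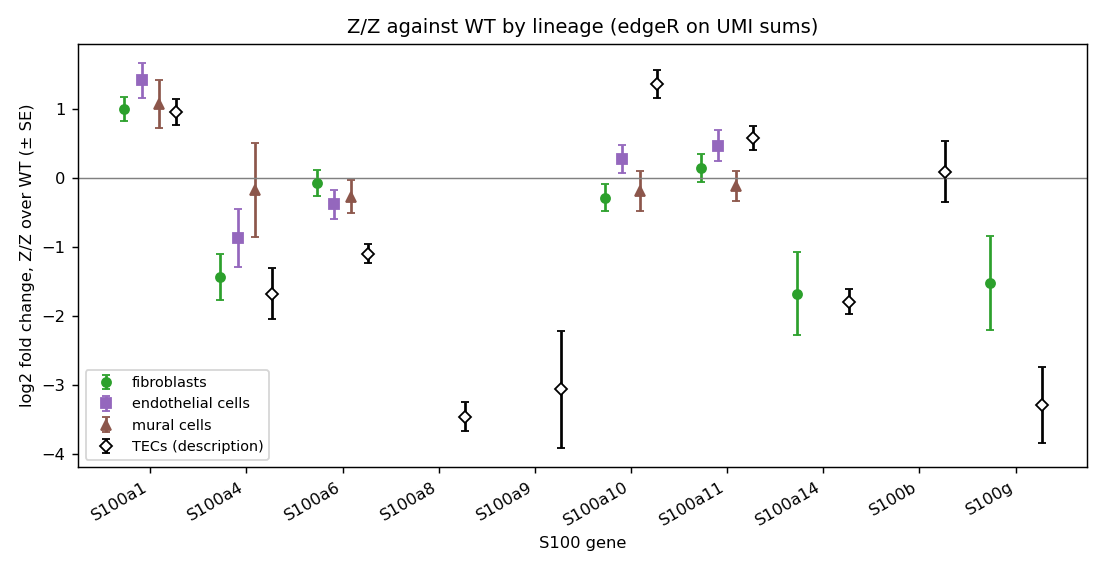
log2 fold changes (Z/Z over WT, ± SE) of the S100 genes by edgeR in fibroblasts, endothelial cells, mural cells and TECs, the last as description (open symbols). S100a1 is above 0 in all 4 lineages, at 0.99, 1.41, 1.06 and 0.95, and genes without a symbol did not pass the filter on low counts.

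Mural cells (pericytes and vascular smooth muscle) were compared with WT 1 alone, since WT 2 held 11 of them. S100a1 stood at 29.9 CPM in WT 1 and 59.0 and 66.5 CPM in Z/Z (TMM-scaled; 1.06 ± 0.35, adjusted p = 0.276). No member was called by edgeR or by DESeq2 of 5 tested, beside 0.355% of 10716 genes, and 1, S100a1, had an unadjusted p under 0.05 by edgeR. S100a6 was 920, 649 and 874 CPM (−0.28 ± 0.24). S100a4 (−0.17 ± 0.68), S100a10 (−0.20 ± 0.29) and S100a11 (−0.12 ± 0.22) were near 0, and each Z/Z effect rests on 1 control library whose spread is taken from the Z/Z libraries.

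**Figure D5:**
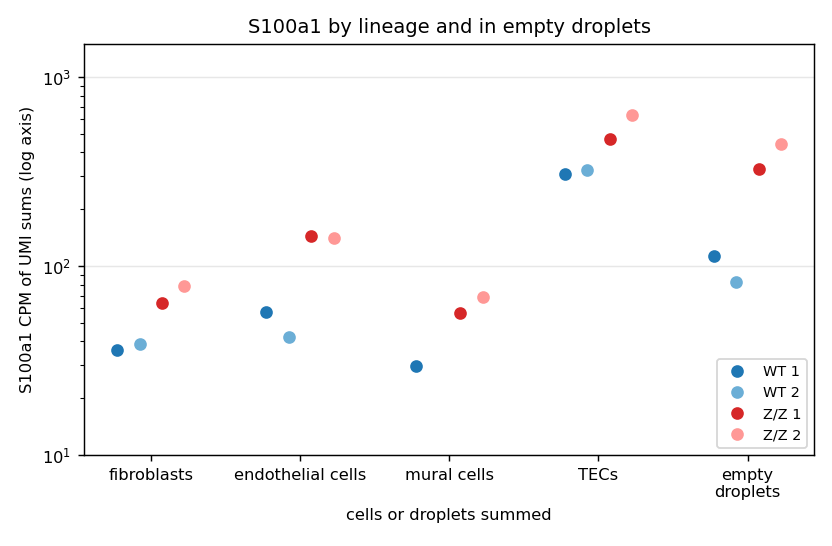
S100a1 CPM of UMI sums per library (log axis) in fibroblasts, endothelial cells, mural cells, TECs and droplets without cells, 1 point per library. Z/Z points lie above WT points in every lineage and in the empty droplets (326 and 443 against 113 and 82.2 CPM).

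The interaction of lineage and genotype tested whether the Z/Z effect differed between endothelial cells and fibroblasts. No member of 7 tested was called by edgeR, beside 1.76% of 14237 genes, and 1 had an unadjusted p under 0.05, S100a10, with an endothelial effect above the fibroblast effect by 0.64 ± 0.27 on the log2 scale (adjusted p = 0.311). The difference for S100a1 was 0.46 ± 0.30 (adjusted p = 0.614) and that for S100a4 was 0.74 ± 0.41 (adjusted p = 0.512), so the larger endothelial value of S100a1 was not distinguishable from the fibroblast value.

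The members' median log2 fold change was −0.29 in fibroblasts, 0.27 in endothelial cells and −0.17 in mural cells, beside 0.01, 0.02 and 0.03 over all genes tested, over the members that passed the filter only. The number called was 1 of 7, 1 of 5 and 0 of 5, beside 2.88%, 1.77% and 0.355% of all genes.

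Among proteins that S100 members bind, 1 of 7 was called in fibroblasts, beside 2.88% of all genes: Anxa6, an annexin, was higher in Z/Z (82.9, 76.4, 140 and 157 CPM, TMM-scaled; 0.89 ± 0.16, adjusted p = 0.0193 by edgeR). Anxa6 did not keep its call in every fit with a library left out, since no gene passed in the weakest of them. In endothelial cells 1 of 7 was called, beside 1.77% of all genes: Anxa1, the partner of S100A11, which was lower (327, 278, 155 and 146 CPM; −1.03 ± 0.20, adjusted p = 0.0311 by edgeR). Anxa1 is given over all endothelial cells, among which capillary cells numbered 12 and 1 in WT against 386 and 336 in Z/Z. None of 7 was called in mural cells, beside 0.355% of all genes (1 at an unadjusted p under 0.05, 0 by DESeq2).

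Among 6 receptor genes, 2 were called in fibroblasts by edgeR, beside 2.88% of all genes. Cd36, a scavenger receptor that takes up fatty acids and is bound by calprotectin, was higher in Z/Z fibroblasts (0.81, 0.35, 6.34 and 6.39 CPM, TMM-scaled; 3.21 ± 0.50, adjusted p = 0.0118) from a count of 7 and 1 UMIs in WT. Tlr4, the receptor that calprotectin can engage, was lower (141, 134, 88.9 and 83.3 CPM; −0.68 ± 0.15, adjusted p = 0.0479). Neither kept its call in every fit with a library left out, since no gene passed in the weakest of them. Within intermediary fibroblast-like cells the Tlr4 fold change had the opposite sign (0.17). In mural cells, with WT 1 as the only control library, Cd36 stood at 19.4 CPM in WT 1 against 86.0 and 95.6 CPM in Z/Z (2.22 ± 0.36). No receptor of 5 tested was called in endothelial cells by edgeR or DESeq2 (1 at an unadjusted p under 0.05), beside 1.77% of all genes by edgeR. The Cd36 effect there was below the fibroblast effect by 3.16 ± 0.47 on the log2 scale (interaction adjusted p = 0.00018). Vdr, Trpv6, Atp2b1 and Calb1, of calcium handling, gave no call in fibroblasts or endothelial cells, with 2 and 1 of them tested. Against 2.88% and 1.77% of all genes, so few genes without a call say nothing about the list.

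None of the other S100 genes that could be tested was called by edgeR or DESeq2 in fibroblasts (of 3) or endothelial cells (of 2, both with an unadjusted p under 0.05). Over all genes edgeR called 2.88% and 1.77%, so these small counts say nothing about the list. In TECs, given as description, all 7 of the other S100 genes tested had a fold change below 0. The 2 past the threshold, beside 21.5% of all genes, were S100a2 and S100a3 (69 and 114 against 14.9 and 16.5 CPM, and 35.7 and 41.1 against 7.16 and 10.2 CPM, TMM-scaled). Within Aire-stage cells S100a2 stood at 116, 195, 123 and 106 CPM and S100a3 at 60.4, 68.0, 84.9 and 67.0 CPM, and the groups overlapped for both.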

How the data were processed

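Droplet 3′ single-cell RNA-seq of CD45- thymic cells was analysed from the UMI counts per gene and barcode that the authors deposited, made with Cell Ranger 7.01 on mm10 per the labels, with intronic reads included. The counts are not normalized. Cells needed over 1000 genes and under 20% mitochondrial UMIs, 101 ribosomal and haemoglobin features were left out, and the top 3.9% of doublet scores per library were removed, since the automatic threshold marked 82 cells. Sequencing saturation, a percent deposited by the authors per library, was 65.2 to 95.2. Leiden clusters were built without 176 S100 and marker genes and named from listed markers. Levels are CPM of UMI sums over classes with at least 20 cells. The members, lists and rules were chosen with earlier results of these data known: all 10 members are named in every comparison, other listed genes where called, and the 3 most alike genes. S100a2 was added to its list after its values were seen. UMI sums per library were tested with edgeR 4.0.16 (quasi-likelihood, TMM, filterByExpr, Benjamini-Hochberg adjusted, 2 against 2 libraries, two-sided, threshold 0.05) in R 4.3.3, with DESeq2 1.42.0 as an alternative. SE is the absolute log2 fold change divided by the root of F. The fits and the thinning were tested on simulated data. Intervals are exact binomial and cover counting error only. UMI totals in called barcodes were 8468086 to 50705511 per library.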

Additional observations from a re-analysis of the deposited data

Results flagged for a closer look

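Droplets without cells, which entered the comparisons only through the subtraction of their profile, held more S100 RNA in Z/Z than in WT for 5 members. The mean of the Z/Z libraries was 384.4 CPM for S100a1 (WT 113 and 82.2 CPM), 648.5 CPM for S100a6 (493 and 263), 395.4 CPM for S100a10 (146 and 100.4), 677.2 CPM for S100a11 (327 and 181) and 7.385 CPM for S100b (1.02 and 0). The same droplets held less S100a8 in Z/Z (22.0 and 24.7 CPM) than in WT (94.1 and 40.5 CPM). S100a4 went in opposite directions within the epithelium, higher in Z/Z in every library of Aire-stage mTEC2-like cells (ratio of the means 1.531) and lower in every Z/Z library of the other TECs (3.04 against 4.79 CPM). The values of the other TECs are low, from 21, 5, 57 and 50 UMIs in library order. The difference in direction was not tested.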

How the results depend on the processing

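Under the alternatives, 510 values were labelled the same, 40 were no longer past the threshold, 6 were newly past it, 32 moved and 13 were reversed. Outside TECs, a fold change was labelled the same when its sign and its side of the threshold held. Members that were never called thus count as the same, and the label says little about the calls, which follow. Members called in TECs, 7, ranged from 0 to 8 with 1 library left out and were 0 without shared barcodes. In fibroblasts the 1 call became 2 with DESeq2, 3 without a filter on low counts, 0 with any library left out, 2 with the replicate block, 2 with crossed numbers, and 0 within capsular, intermediary or medullary cells alone. In endothelial cells the 1 call became 2 without the filter, 0 to 2 with a library left out, and 0 after subtraction of empty-droplet RNA or without capillary cells. In mural cells 0 became 1 under 10% mitochondrial UMIs; leaving out a library was not run there, since it would leave 1 against 1. At Leiden resolution 2, 5 of 10 members kept their highest class.

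The sign turned for S100a4 in fibroblasts within medullary cells (0.19), S100a6 in fibroblasts with 1 library left out (range −0.23 to 0.13), S100a11 in fibroblasts with 1 library left out (−0.10 to 0.36) and within capsular (−0.11) or medullary cells (−0.20), Tlr4 in intermediary fibroblasts (0.17), S100a6 in endothelial cells without capillary cells (0.034) and S100a11 in mural cells with WT 2 kept in (0.15). With 1 library left out, the interaction ranged across 0 for S100a4 (−0.24 to 1.37), S100a6 (−0.51 to 0.14) and S100a14 (−0.20 to 7.32). Of these, only Tlr4 was called. The cause was not tested.

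Genes called over all genes, 400 in fibroblasts, were 1318 without the filter, 167 without shared barcodes, 660, 72 and 131 within the 3 classes and 0 to 182 with a library left out. In endothelial cells 201 became 724 without the filter, 369 with the replicate block, 58 without shared barcodes, 113 with the top 8% of doublet scores removed, 33 without capillary cells and 72 to 162 with a library left out. In mural cells 38 became 357 without the filter, 8 without shared barcodes, 85 with the doublet setting, 359 under 10% mitochondrial UMIs, 452 after subtraction and 7 with WT 2 kept in. In TECs 4057 became 1 without shared barcodes, 2101 after subtraction, 2318 with the block and 0 and 1262 without Z/Z 1 and Z/Z 2.

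Same-numbered libraries share only a number: their deviations correlated at −0.14 in TECs, −0.24 in fibroblasts and −0.13 in endothelial cells. With the replicate block, 7, 2 and 1 members were called in TECs, fibroblasts and endothelial cells. With the numbers crossed, a setting chosen after seeing the data, as were the fibroblast class, capillary and WT 2 settings, 3291, 1447 and 578 genes were called. The number of cells limits the Aire-stage values, which rest on 47 cells in WT 2 and on 58 and 80 in Z/Z.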

Other observations

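Clustered more finely, the Aire-stage class gave off a group of 63 cells, and S100a4, S100a8, S100a9, S100a11 and S100a14 were then highest in that group. It was the group highest in the listed M-cell markers, and 46 of its cells came from WT 1, the only library with at least 20. In those 46 cells S100a8 stood at 1372 CPM, S100a9 at 870 CPM, S100a6 at 1759 CPM and S100a11 at 2267 CPM, at a median of 3641 UMIs per cell against 21770 in the whole Aire-stage class of that library.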
